A study of Homo sapiens with 8 samples.

Results

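Rosiglitazone was added to carboplatin in a human lung adenocarcinoma cell line, and expression was compared between the 2 arrays of cells that received both drugs and the 2 arrays of cells that received carboplatin alone. These 4 arrays were chosen by their titles, out of 8 in the series. The combination group received rosiglitazone together with carboplatin, at doses that the labels give only for each drug alone. The carboplatin group received 10 µM carboplatin. Of the other 4 arrays, 2 are of cells given 1 µM rosiglitazone and 2 of cells given the control treatment, which the labels describe as control medium or DMSO. Every group was kept in DMEM with 10% fetal bovine serum and treated for 24 h. The line is a non-small cell lung adenocarcinoma line that the labels do not name, and its genotype is not given in the sources used here. RNA was measured on Affymetrix oligonucleotide arrays, where sets of probes each read a transcript and many genes have several sets. Whether duplicate arrays stand for separately grown cells is not stated in the labels, so the p-values cover the spread from array to array and that spread may be technical.

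Rosiglitazone is a thiazolidinedione and a ligand of PPARγ, a nuclear receptor that pairs with RXR on DNA and switches on genes of fat uptake, storage and oxidation. PPARγ is best known from fat cells and is also present in epithelia, lung included. Carboplatin is a platinum drug that crosslinks DNA and so engages repair, the p53 pathway and cell cycle checkpoints. The series title concerns synergy between PPARγ ligands and platinum drugs, and the comparison asks what the ligand changes in cells that already carry the platinum drug.

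The median deposited signal was 37.2 and 52.2 in combination arrays, 37.6 and 44.6 in carboplatin arrays, 46.4 and 54.3 in rosiglitazone arrays, and 45.8 and 36.2 in control arrays. Levels below are quantile normalised log2(signal + 16) values, where 16 is a pseudocount that understates changes of dim probe sets, and differences are log2 differences with the standard error (SE) from limma, n = 2 arrays a group. A probe set or gene is called when its limma p-value, adjusted by the Benjamini-Hochberg method over 13329 probe sets, is under 0.05. The epithelial keratin genes KRT18, KRT7 and KRT8 had mean log2 levels of 12.3, 11.6 and 11.1 over all 8 arrays, and EPCAM and the lung factor NKX2-1 lay below the filter on dim probe sets. No leukocyte marker of 5 on the array and no endothelial marker of 5 reached that filter.

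Between the combination and carboplatin, 21 probe sets were called, which is 0.158% of those tested, with 19 higher (0.143%) and 2 lower (0.015%), and 857 (6.43%) had an unadjusted p under 0.05. By gene, using the brightest probe set of each, 18 of 8023 genes rose (0.224%) and 2 fell (0.0249%), together 0.249%. The number of called probe sets was 5 when combination array 1 was left out, 7 without combination array 2, 4 without carboplatin array 1, 6 without carboplatin array 2 and 8 without rosiglitazone array 2, which adds to the shared spread. PLIN2, ANGPTL4, DLC1 and FA2H were called under every one of 18 alternative settings and omissions, and each of the other 16 genes lost its call in at least 1. With 2 arrays against 2, an exact permutation test of a gene on its own could give no p below 0.333, so the calls rest on the spread shared across genes and groups.

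**Figure D1:**
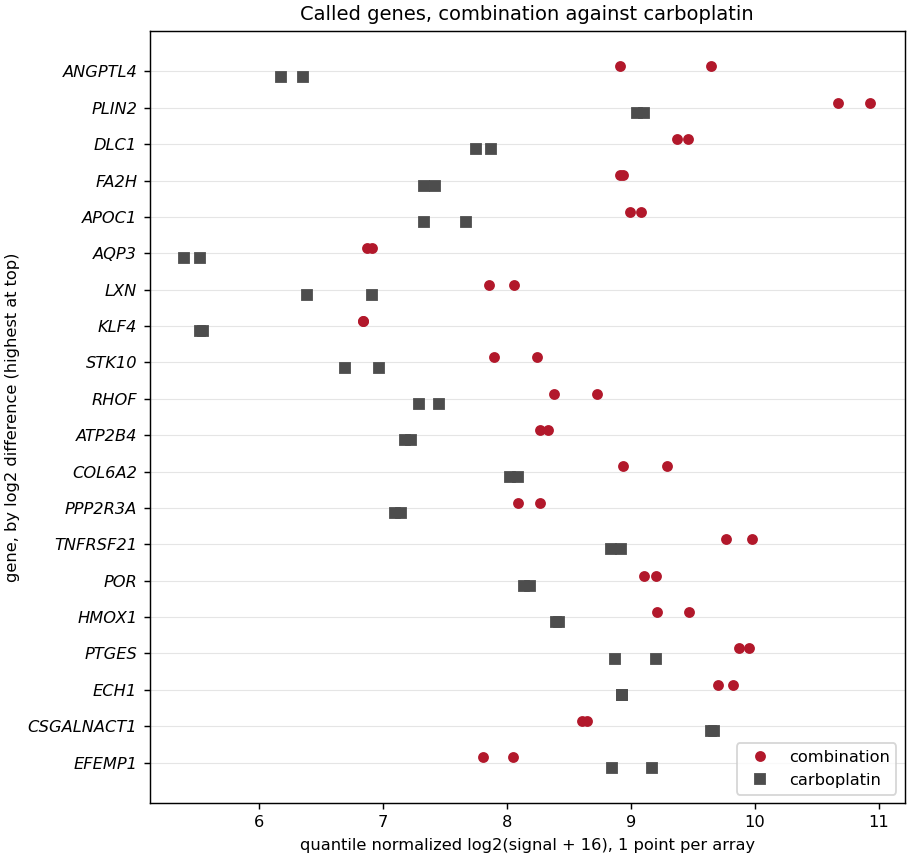
Level of the 20 called genes (rows) on the combination and carboplatin arrays, as quantile normalised log2(signal + 16) on the horizontal axis; each point is 1 array. In each of the 18 genes that rose both combination points lie above both carboplatin points, and in CSGALNACT1 and EFEMP1 both lie below. The 20 genes were picked by their calls between these same arrays.

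The called rises began with genes of lipid storage and lipoprotein handling. PLIN2 encodes perilipin 2, a coat protein of lipid droplets. Its level was 10.93 and 10.67 on the combination arrays, against 9.11 and 9.05 on the carboplatin arrays. The groups were far apart, and PLIN2 rose by 1.71 ± 0.12 (3.28-fold, limma adjusted p = 0.000184). A second, dim PLIN2 probe set differed by 0.84 (adjusted p = 0.817). In deposited signal units PLIN2 read 1609 and 2026 in the combination and 428.1 and 532.9 with carboplatin.

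ANGPTL4, a secreted inhibitor of lipoprotein lipase, had the largest rise among called genes. It read 9.65 and 8.91 with the combination, against 6.18 and 6.36 with carboplatin, a difference of 3.01 ± 0.23 (8.03-fold, adjusted p = 0.000293). Before normalisation its signals were 636.7 and 588.2 in the combination and 47.31 and 69.42 with carboplatin. APOC1, an apolipoprotein of triglyceride-rich particles, read 9.08 and 8.99 with both drugs and 7.67 and 7.33 with carboplatin alone (1.53 ± 0.23, adjusted p = 0.0295). Another, dimmer APOC1 probe set differed by 0.32 (adjusted p = 0.867). ECH1, an enzyme of fatty acid beta-oxidation in peroxisomes and mitochondria, read 9.82 and 9.70 in the combination and 8.93 on both carboplatin arrays (0.83 ± 0.13, adjusted p = 0.0353).

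FA2H and AQP3 handle other lipid-related cargo. FA2H puts a hydroxyl group on fatty acids that are built into sphingolipids, and it read 8.91 and 8.94 in the combination against 7.42 and 7.33 with carboplatin (1.55 ± 0.14, 2.92-fold, adjusted p = 0.000863). AQP3 is a channel for water and glycerol in epithelia. Its level was 6.87 and 6.91 with the combination and 5.40 and 5.53 with carboplatin, a rise of 1.42 ± 0.21 (adjusted p = 0.0295), which came to 0.85 with a pseudocount of 64. A second AQP3 probe set differed by 0.62 (adjusted p = 0.747).

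The promoters of PLIN2, FA2H and ANGPTL4 are shown, which were among the genes called in every setting tried. DLC1 was called in every setting too, and its promoter is not shown. PPARγ and RXR bind repeats of the half-site AGGTCA spaced by 1 base. The sequences are from RefSeq on GRCh38.p14, from 250 bases before to 50 bases after the gene's start, 5′ to 3′ on the gene's strand, and capitals mark matches to the relaxed half-site AGGNCA on either strand. PLIN2 is at chr9:19127443-19127742 (minus strand), FA2H at chr16:74774771-74775070 (minus strand) and ANGPTL4 at chr19:8363905-8364204 (plus strand).
PLIN2: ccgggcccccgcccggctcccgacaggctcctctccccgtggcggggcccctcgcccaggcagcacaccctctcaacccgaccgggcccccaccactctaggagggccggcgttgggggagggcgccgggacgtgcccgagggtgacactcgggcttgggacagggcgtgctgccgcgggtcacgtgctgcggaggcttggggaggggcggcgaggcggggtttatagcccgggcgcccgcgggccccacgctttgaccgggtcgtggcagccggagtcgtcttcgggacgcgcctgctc
FA2H: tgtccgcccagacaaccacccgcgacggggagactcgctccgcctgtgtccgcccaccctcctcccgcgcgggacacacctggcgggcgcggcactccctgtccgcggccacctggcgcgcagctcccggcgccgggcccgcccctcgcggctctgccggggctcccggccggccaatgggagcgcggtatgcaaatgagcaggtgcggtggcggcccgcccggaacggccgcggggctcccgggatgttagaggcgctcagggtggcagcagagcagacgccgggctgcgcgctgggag
ANGPTL4: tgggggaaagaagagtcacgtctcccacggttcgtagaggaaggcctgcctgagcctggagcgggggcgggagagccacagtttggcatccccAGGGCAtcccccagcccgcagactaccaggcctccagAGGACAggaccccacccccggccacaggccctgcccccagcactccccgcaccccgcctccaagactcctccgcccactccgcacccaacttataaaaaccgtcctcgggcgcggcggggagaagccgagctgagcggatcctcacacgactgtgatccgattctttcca

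Searched on both strands, the full repeat AGGTCANAGGTCA was in 0.0228% of 35116 promoters of this length and in 0 of the 13 called genes with a promoter in the table. The relaxed repeat AGGNCANAGGNCA was in 0.31% of all promoters and again in 0 of the 13. The half-site AGGTCA was in 13.8% of all promoters and in 1 of the 13, PPP2R3A. Its relaxed form AGGNCA, which also finds every AGGTCA, was in 53.2% of all and in 6 of the 13, with 2 matches in the ANGPTL4 sequence above. These letters describe a short window next to the start, and enhancers farther away were not searched.

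Signalling and membrane genes made up a further group of rises. DLC1, a GTPase-activating protein, read 9.46 and 9.37 in the combination and 7.87 and 7.75 with carboplatin (1.60 ± 0.13, 3.04-fold, adjusted p = 0.000382). RHOF, a small GTPase of filopodia, read 8.73 and 8.38 in the combination against 7.45 and 7.29 with carboplatin (1.19 ± 0.18, adjusted p = 0.0295). STK10, a kinase that acts on ezrin-family proteins, read 7.90 and 8.24 in the combination and 6.97 and 6.70 with carboplatin (1.23 ± 0.18, adjusted p = 0.0293), with another probe set at 0.61 (adjusted p = 0.398). In all 3 the combination arrays lay above the carboplatin arrays, which held for 18% of all genes and is favoured by picking called genes. PPP2R3A, a regulatory subunit of protein phosphatase 2A, rose by 1.05 ± 0.16 (adjusted p = 0.0297), while its other tested probe sets differed by 0.23 and 0.46 without passing.

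ATP2B4, a plasma membrane pump that exports calcium, read 8.33 and 8.27 with the combination and 7.23 and 7.18 with carboplatin (1.10 ± 0.14, adjusted p = 0.0199). Its 3 probe sets did not share a sign, since the others differed by 0.77 (adjusted p = 0.268) and -0.39 (adjusted p = 0.873). TNFRSF21, known as death receptor 6, read 9.77 and 9.98 in the combination and 8.92 and 8.84 with carboplatin (0.99 ± 0.14, adjusted p = 0.0293), with another probe set at 1.09 (adjusted p = 0.178). TNFRSF1A, the main receptor for tumour necrosis factor, just missed the threshold. It read 10.80 and 10.83 in the combination and 10.06 and 9.99 with carboplatin (0.79 ± 0.13, adjusted p = 0.0509).

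Among enzymes of redox and lipid mediator pathways, POR, which passes electrons to cytochrome P450 enzymes, read 9.20 and 9.11 with the combination against 8.14 and 8.19 with carboplatin (0.99 ± 0.13, 1.99-fold, adjusted p = 0.0182). HMOX1, the heme oxygenase that degrades heme, read 9.47 and 9.21 in the combination and 8.40 and 8.42 with carboplatin (0.93 ± 0.14, adjusted p = 0.0295). PTGES, which makes prostaglandin E2, read 9.95 and 9.87 in the combination and 9.20 and 8.87 with carboplatin (0.88 ± 0.13, adjusted p = 0.0295), with another probe set at 0.60 (adjusted p = 0.725). Each of these genes was higher on both combination arrays than on either carboplatin array, which picking called genes favours. LXN, an inhibitor of carboxypeptidases, read 7.86 and 8.06 in the combination and 6.39 and 6.91 with carboplatin (1.31 ± 0.20, adjusted p = 0.0295).

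The called set also held 1 transcription factor and several matrix genes. KLF4, a zinc finger factor of epithelial differentiation, read 6.84 on both combination arrays and 5.53 and 5.55 on the carboplatin arrays (1.30 ± 0.20, adjusted p = 0.0295), and the difference was 0.78 with a pseudocount of 64. Its second probe set differed by 0.46 (adjusted p = 0.85). COL6A2, a chain of collagen VI, read 9.29 and 8.94 in the combination and 8.09 and 8.03 with carboplatin (1.06 ± 0.15, adjusted p = 0.0293). A dimmer COL6A2 probe set differed by 0.08 (adjusted p = 0.99). Its partner chain COL6A1 read 10.33 and 9.98 in the combination and 9.55 and 9.19 with carboplatin without passing (0.79 ± 0.16, adjusted p = 0.119).

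Both called falls were matrix genes too. CSGALNACT1, which starts chondroitin sulphate chains, read 8.65 and 8.61 with the combination and 9.65 and 9.67 with carboplatin. It fell by 1.03 ± 0.14 on the log2 scale, a level 2.04 times higher in carboplatin (adjusted p = 0.0253). EFEMP1, the secreted glycoprotein fibulin-3, read 7.81 and 8.05 in the combination and 8.85 and 9.17 with carboplatin. EFEMP1 fell by 1.08 ± 0.16 (adjusted p = 0.0293), and its dimmer probe set differed by -0.91 (adjusted p = 0.291). Of the 46 extracellular matrix and proteoglycan genes tested, 27 were higher and 19 lower, and the median difference was 0.05 against 0.003 over all genes. By call 1 rose and 2 fell, against 0.224% and 0.0249% of all genes.

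The PPAR target list gives a wider view of genes known as targets of the receptor. Whether changes in them came through PPARγ was not tested. The list was chosen with earlier results of these data known, so its lean is not independent evidence. Of its 27 genes tested, 22 were higher and 5 lower, where 50.5% of all genes were higher. Of these 27, PLIN2, ANGPTL4, AQP3 and ECH1 rose (4) and 0 fell, against 0.224% of all genes called higher. The median difference of the list was 0.46, and that of all genes 0.003. An unadjusted p under 0.05 was reached upward by 13 of the 27 and downward by 0, where 3.53% of all genes reached it upward. On 17 of the 27 both combination arrays lay above both carboplatin arrays, which held for 18% of all genes. The list median was between 0.25 and 0.62 under every alternative setting.

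Members that missed the threshold included CAT, the peroxisomal catalase, with 9.82 and 10.12 in the combination and 8.99 and 9.26 with carboplatin (0.84 ± 0.15, adjusted p = 0.0753). ACAA2, a thiolase of mitochondrial beta-oxidation, differed by 0.98 ± 0.20 (adjusted p = 0.117), and ETFA, an electron acceptor of the same pathway that is not on the PPAR list, by 0.86 ± 0.17 (adjusted p = 0.107). PDK4, which restrains pyruvate oxidation, read 6.22 and 7.06 in the combination and 4.92 and 5.69 with carboplatin (1.33 ± 0.31, adjusted p = 0.22). CPT1A, which admits fatty acids to mitochondria, read 9.01 and 8.93 in the combination and 8.36 and 8.40 with carboplatin (0.59 ± 0.13, adjusted p = 0.204). PDK4 and CPT1A are named after their values were seen. Among 31 fatty acid oxidation and peroxisome genes, 23 were higher and 8 lower (median 0.13). At an unadjusted p under 0.05 in limma 10 of them were higher and 2 lower, against 3.53% and 2.89% of all genes. The combination arrays lay above the carboplatin arrays without overlap in 18 and below in 4, against 18% and 17.1% of all genes. ECH1 was the 1 called, against 0.224% of all genes called higher. The peroxisomal transporter ABCD3, also picked after its values were seen, went the other way without passing, at 7.41 and 7.47 in the combination and 8.29 and 8.32 with carboplatin (-0.87 ± 0.21, adjusted p = 0.231).

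The receptors themselves gave no calls. PPARG read 7.84 and 7.97 in the combination and 8.07 and 8.19 with carboplatin (-0.23 ± 0.15, adjusted p = 0.891). Of 9 PPAR and RXR receptors and coregulators tested, 4 were higher and 5 lower, with a median of -0.09, and 0 reached an unadjusted p under 0.05 in limma. Of the adipocyte markers 2 of 6 passed the filter on dim probe sets, LIPE and CIDEC, neither called. The deposited signal summed over all 7 probe sets of the adipocyte list, those below the filter included, was 137 to 154 in the combination and 120 to 131 with carboplatin.

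**Figure D2:**
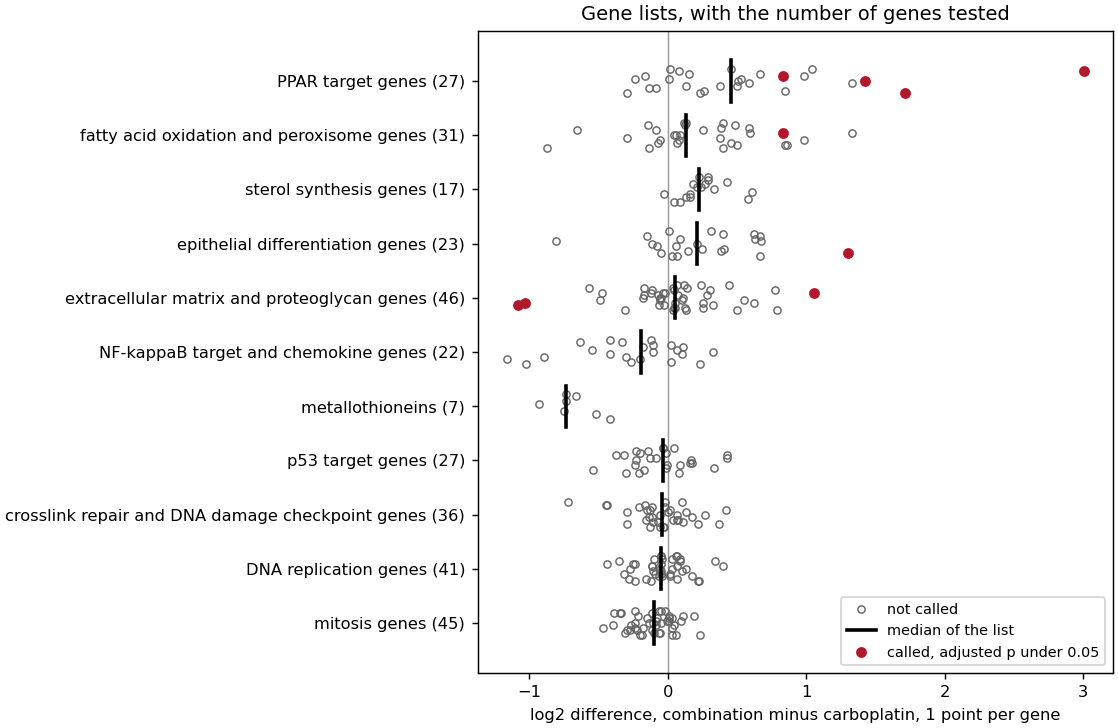
Log2 difference of the combination minus carboplatin (horizontal) for the tested genes of selected lists (rows); each point is 1 gene, filled points are called genes and the bar is the median of the list. The PPAR targets have a median of 0.46 and the metallothioneins of -0.73, with no filled point among the metallothioneins.

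Lipid synthesis genes leaned upward without calls. Of 17 sterol synthesis genes, 16 were higher and 1 lower, 0 were called, and the median difference was 0.22. Upward, 4 reached an unadjusted p under 0.05 in limma, against 3.53% of all genes. LSS, which closes the sterol ring, differed by 0.58 ± 0.16 (adjusted p = 0.331), with another probe set at -0.33, and MVD of the mevalonate pathway by 0.61 ± 0.25 (adjusted p = 0.703). Among 11 fatty acid synthesis genes, 8 were higher and 3 lower with a median of 0.17, 0 called by limma and 1 higher at an unadjusted p under 0.05. ELOVL6, a fatty acid elongase, had the smallest p of them (0.52 ± 0.15, adjusted p = 0.432), and its other tested probe set had the opposite sign (-0.14). Sphingolipid genes were split at 8 higher and 9 lower of 17, with FA2H called, against 0.224% of all genes called higher.

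Metallothioneins are small proteins whose many cysteines hold zinc and copper, and they can also take up platinum. This family was picked out by the study itself on the same samples, so its direction here is not independent evidence. All 7 metallothionein genes tested were lower in the combination and 0 were called, with a median of -0.73 against 0.003 over all genes. In each of the 7 both combination arrays lay below both carboplatin arrays, which held for 17.1% of all genes. Downward, 5 of 7 reached an unadjusted p under 0.05 in limma, against 2.89% of all genes.

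MT1X read 10.64 and 10.35 in the combination and 11.62 and 11.24 with carboplatin (-0.93 ± 0.16, adjusted p = 0.0509). MT1H was tightly grouped at 9.68 and 9.82 in the combination and 10.49 and 10.48 with carboplatin (-0.73 ± 0.12, adjusted p = 0.0509). MT1G read 9.60 and 9.19 in the combination against 10.26 and 10.02 with carboplatin (-0.75 ± 0.15, adjusted p = 0.119). These isoforms are close in sequence, and most of their probe sets carry the suffix by which Affymetrix marks probes that may also read other transcripts, so the genes cannot be counted as independent. MT2A read 12.34 and 12.06 in the combination and 12.76 and 12.67 with carboplatin (-0.52 ± 0.12, adjusted p = 0.204). MT1F differed by -0.74 ± 0.18, MT3 by -0.66 ± 0.34 and MT1E by -0.42 ± 0.19 (adjusted p = 0.223, 0.828 and 0.782). A dim MT1G probe set below the filter read 5.72 and 5.29 in the combination and 4.80 and 5.30 with carboplatin, so its groups overlapped, and a second MT1E probe set had the opposite sign. Under every alternative the median of the 7 stayed negative, between -0.95 and -0.53.

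Inflammatory genes were mostly lower. Of 22 NF-κB targets and chemokines tested, 7 were higher and 15 lower, 0 were called, and the median difference was -0.19. In 13 of the 22 the combination arrays lay below the carboplatin arrays without overlap, against 17.1% of all genes, and 7 reached an unadjusted p under 0.05 in limma, against 2.89% of all genes. CCL2, which attracts monocytes, read 6.46 and 6.91 in the combination and 7.64 and 7.77 with carboplatin (-1.03 ± 0.19, adjusted p = 0.0815). The neutrophil chemokine CXCL5 read 8.72 and 9.96 in the combination and 10.25 and 10.76 with carboplatin (-1.16 ± 0.32, adjusted p = 0.353), and its combination arrays were far apart. Without combination array 2 it differed by -1.79, and without combination array 1 by -0.54. A second, slightly dimmer CXCL5 probe set differed by -0.33 ± 0.11 (adjusted p = 0.583). CXCL1 differed by -0.89 ± 0.26 (adjusted p = 0.426), and CXCL8 by -0.63 ± 0.22 (adjusted p = 0.621). The list median kept its negative sign under every alternative, between -0.32 and -0.06.

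Other genes of smallest p among the falls did not pass. PLCG1, a phospholipase of growth factor signalling, read 5.38 and 5.57 in the combination and 7.09 and 6.61 with carboplatin (-1.38 ± 0.27, adjusted p = 0.117). A second PLCG1 probe set differed by -0.41 (adjusted p = 0.859). RGS2, which shortens G protein signals, read 7.24 and 7.44 in the combination and 8.17 and 8.13 with carboplatin (-0.81 ± 0.17, adjusted p = 0.133). SPDEF, an ETS factor of secretory epithelium, read 5.82 and 5.01 in the combination and 7.17 and 6.93 with carboplatin (-1.63 ± 0.29, adjusted p = 0.0753). Its 4 probe sets differ in sign, 2 of them being higher in the combination. The kinase gene RPS6KA5 differed by -0.85 ± 0.18 (adjusted p = 0.172).

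Epithelial differentiation genes leaned upward. Of 23 tested, 18 were higher and 5 lower, and the median difference was 0.21. KLF4 was called, against 0.224% of all genes called higher. KRT7, a keratin of simple epithelia, read 11.87 and 12.07 in the combination and 11.33 and 11.35 with carboplatin (0.63 ± 0.13, adjusted p = 0.127). CDH1, the epithelial cadherin, read 7.08 and 7.10 in the combination and 6.13 and 6.71 with carboplatin (0.67 ± 0.22, adjusted p = 0.531). DSP of desmosomes differed by 0.67 ± 0.20 (adjusted p = 0.444). Of 7 markers of lung adenocarcinoma epithelium tested, 6 were higher. The deposited signal summed over all 18 probe sets of the marker list, those below the filter included, was 10175 to 14491 in the combination and 8552 to 10014 with carboplatin, and the part of array brightness in it was not tested. Among 15 lung lineage genes 8 were higher and 7 lower, 0 called by limma. Of these 15, 2 were lower at an unadjusted p under 0.05 in limma, against 2.89% of all genes.

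Genes that answer to platinum damage showed no calls between the combination and carboplatin in limma. CDKN1A, the p53-induced cell cycle inhibitor, read 9.34 and 8.75 in the combination and 9.10 and 9.06 with carboplatin, against 7.48 and 7.55 with rosiglitazone and 7.43 and 7.62 in control. The combination and carboplatin arrays overlapped, and the difference was -0.03 ± 0.18 (adjusted p = 0.996). GDF15, another p53-responsive gene, read 8.11 and 8.17 in the combination and 8.25 and 8.44 with carboplatin (-0.20 ± 0.16, adjusted p = 0.926), against 6.61 and 6.89 with rosiglitazone and 7.26 and 7.29 in control. CDKN1A and GDF15 are named after their values were seen. Of 27 p53 targets tested, 9 were higher and 18 lower, with a median of -0.04. In each direction 1 had an unadjusted p under 0.05 in limma, against 3.53% of all genes upward and 2.89% downward. In carboplatin against control, which shares the carboplatin arrays, the median of the same list was 0.42.

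Crosslink repair and checkpoint genes were 14 higher and 22 lower of 36 (median -0.04), and DNA replication genes 17 higher and 24 lower of 41 (median -0.05). Each of these lists had 0 calls in limma and 1 gene lower at an unadjusted p under 0.05, against 2.89% of all genes. Mitosis genes were 12 higher and 33 lower of 45, with a median of -0.10, 0 called and 4 lower at an unadjusted p under 0.05 in limma, against 2.89% of all genes. In 18 of the 45 the combination arrays lay below the carboplatin arrays without overlap, against 17.1% of all genes, and in 2 above, against 18%. The medians of these lists and of the p53 targets were positive on the deposited scaling, so no direction is given for them. There they were 0.094 for repair, 0.103 for replication, 0.039 for mitosis and 0.107 for p53 targets. The median of all probe sets was 0.124 on that scaling. In bulk RNA, fewer cells in a phase and less RNA per cell cannot be told apart.

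**Figure D3:**
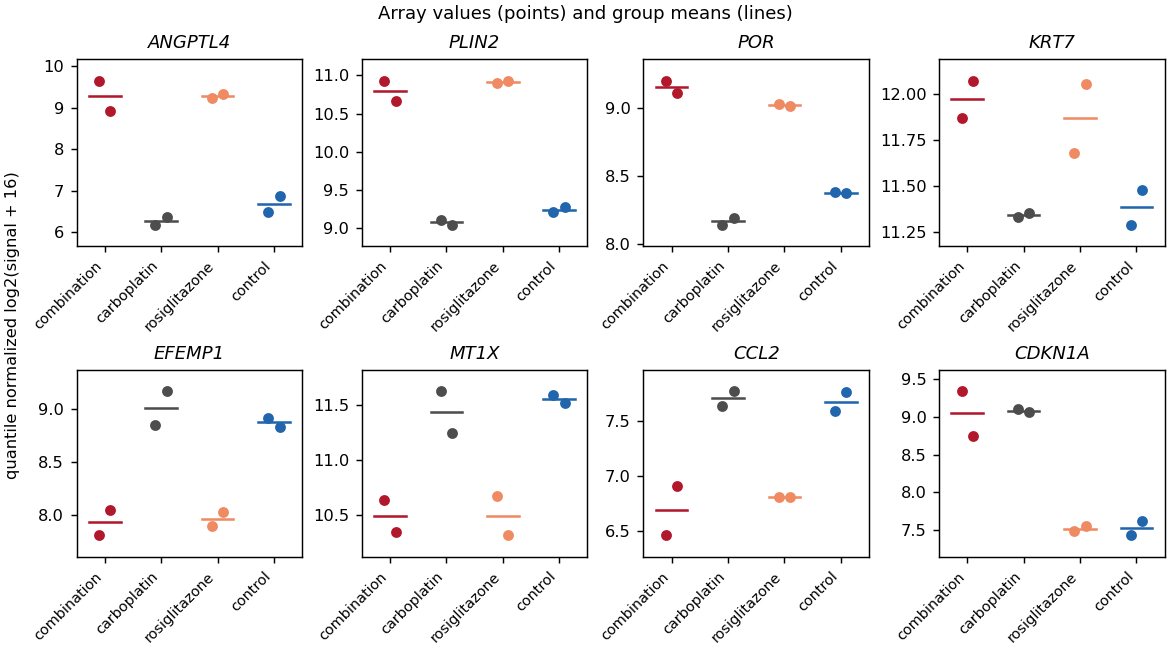
Quantile normalised log2(signal + 16) of ANGPTL4, PLIN2, POR, KRT7, EFEMP1, MT1X, CCL2 and CDKN1A in the combination, carboplatin, rosiglitazone and control groups; points are arrays, the short line is the group mean, and each vertical axis has its own range. ANGPTL4 and PLIN2 are high in both groups that received rosiglitazone, MT1X and CCL2 are low in both, and CDKN1A is high in both groups that received carboplatin.

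Genes of metal and platinum transport were 12 higher and 10 lower of 22, with 0 called by limma, 1 higher at an unadjusted p under 0.05 and a median of 0.03. ABCG2, an efflux transporter, had the smallest p among them, at 8.53 and 8.65 in the combination and 7.51 and 7.98 with carboplatin (0.85 ± 0.18, adjusted p = 0.133). NRF2 target and glutathione genes were 13 higher and 17 lower of 30, with HMOX1 called. In this list 5 genes were higher at an unadjusted p under 0.05 in limma and 0 lower. AKR1C1, AKR1C3 and AKR1C2 differed by 0.31, 0.33 and 0.28 without passing (adjusted p = 0.22, 0.331 and 0.398). Apoptosis genes were 15 higher and 14 lower of 29, with TNFRSF21 called. Over all genes 0.224% were called higher. At an unadjusted p under 0.05 in limma 3.53% of all genes were higher and 2.89% lower. JUN, a subunit of AP-1, read 8.86 and 9.10 in the combination and 7.97 and 8.29 with carboplatin (0.85 ± 0.16, adjusted p = 0.0942), and its other 3 tested probe sets were higher too without passing. The list of JUN, FOS and immediate early genes was 10 higher and 11 lower of 21.

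Rosiglitazone given alone was set against control to see whether the called genes moved alike without carboplatin. That comparison uses the other 4 arrays and shares none with the combination and carboplatin arrays, but all 8 arrays were normalised together and share 1 estimate of spread. It called 48 probe sets (0.36%), 36 higher (0.27%) and 12 lower (0.09%). The count was 7 without rosiglitazone array 1, 3 without rosiglitazone array 2, 17 without control array 1, 14 without control array 2 and 30 without carboplatin array 2. Of the 21 probe sets called in the combination against carboplatin, 12 were also called here, 57.1% of the 21 and 25% of the 48.

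Direction was shared by 20 of the 21 (95.2%) and by 46 of the 48 (95.8%), where it was shared by 52.6% of all probe sets. The 48 had a median size of 0.98 with rosiglitazone alone and of 0.77 on top of carboplatin. They were picked for their size with rosiglitazone alone, which by itself makes the first value larger. Across all 13329 probe sets the differences of both comparisons had a Pearson correlation of 0.145 and a Spearman correlation of 0.093, a description across probe sets that share arrays within each comparison and are not independent replicates.

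**Figure D4:**
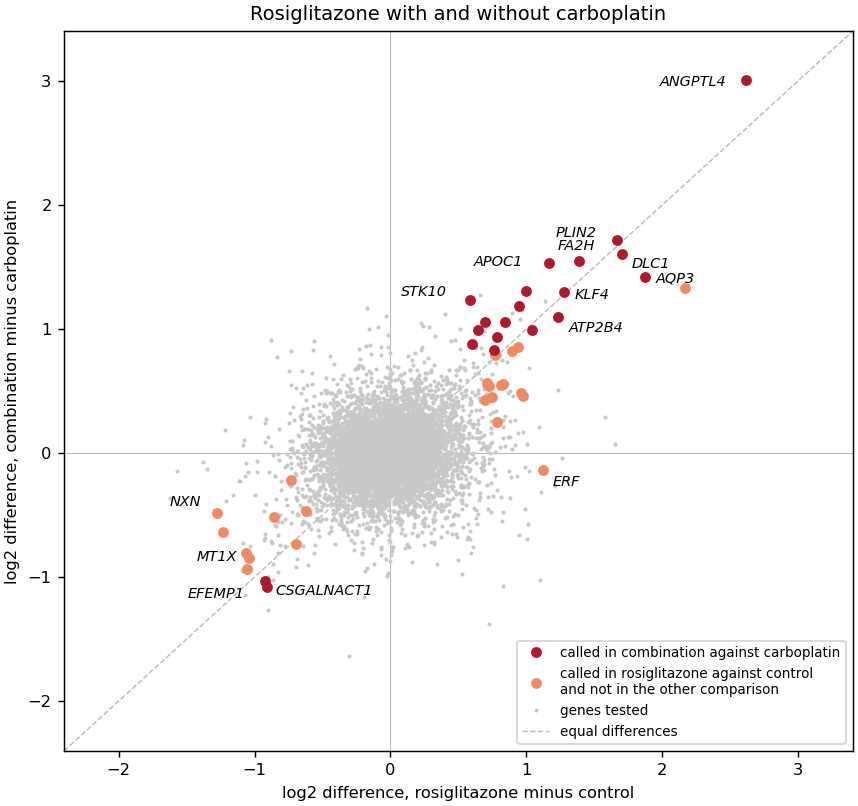
Log2 difference of combination minus carboplatin (vertical) against rosiglitazone minus control (horizontal) for the 8023 genes tested; dark points are the 20 genes called in the first comparison, orange points those called in the second and not in the first. The dark points lie in the upper right or lower left, and ERF, an orange point, lies at -0.14 on the vertical axis.

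Gene by gene, the strongest called rises were of like size in both settings. The rise of PLIN2 was 1.71 ± 0.12 with carboplatin present and 1.67 ± 0.12 without it, and the difference between them was 0.05 with a 95% interval of -0.32 to 0.41. For ANGPTL4 the values were 3.01 and 2.62, and the difference was 0.39 (-0.33 to 1.10). DLC1 rose by 1.60 with carboplatin and 1.70 without, a difference of -0.10 (-0.51 to 0.31). FA2H gave 1.55 and 1.39, a difference of 0.16 (-0.28 to 0.59). These intervals include 0 and leave room for differences of up to about the ends given, so equal effects were not shown.

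Of the called genes not called with rosiglitazone alone, POR differed by 0.99 on top of carboplatin and by 0.64 alone (adjusted p = 0.0636 alone), and the difference was 0.35 (-0.04 to 0.74). STK10 had 1.23 and 0.58 (adjusted p = 0.275 alone), a difference of 0.65 with an interval of 0.10 to 1.21 and an unadjusted limma p of 0.0256. The other tested STK10 probe set went against this, with 0.61 on top of carboplatin and a larger rise of 1.17 alone. For COL6A2 the values were 1.06 and 0.70, and for APOC1 1.53 and 1.17. The dimmer APOC1 probe set had 0.32 on top of carboplatin and a larger rise of 0.88 alone. The adjusted p of the difference was at least 0.819 for each called gene, so an effect particular to the presence of carboplatin was not shown for any.

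The difference itself was called for 0 of 13329 probe sets by limma, with 793 (5.95%) at an unadjusted p under 0.05, and for 3 on the deposited scaling, PLCG1 among them. The smallest p belonged to PLCG1, which was lower in the combination than with carboplatin by 1.38, and whose difference between settings was -2.10 (interval -2.95 to -1.25, limma adjusted p = 0.819). ERF, an ETS family repressor, read 8.23 and 8.21 in the combination and 8.41 and 8.30 with carboplatin, against 7.80 and 8.09 with rosiglitazone and 7.01 and 6.62 in control. It was high in all 3 drug-treated groups, and its difference was -1.26 (-1.81 to -0.72). ATP2C1, a calcium and manganese pump of the Golgi, had 1.56 (0.85 to 2.26), PCOTH -1.58 (-2.32 to -0.85) and DCBLD2, a membrane receptor gene, -1.44 (-2.15 to -0.73), each with an adjusted p of 0.819. Other probe sets of PLCG1 and ATP2C1 moved less. The second PLCG1 probe set changed by -0.41 on top of carboplatin and by 0.12 with rosiglitazone alone. The other ATP2C1 probe sets changed by 0.27 and 0.11 on top of carboplatin, and by -0.06 and -0.14 alone.

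List medians with rosiglitazone alone can be set beside those on top of carboplatin. The PPAR targets had 0.46 in the combination against carboplatin and 0.43 in rosiglitazone against control. The metallothioneins had -0.73 and -0.77, the sterol synthesis genes 0.22 and 0.17, the NF-κB targets and chemokines -0.19 and -0.11, and the epithelial differentiation genes 0.21 and 0.14. All genes had 0.003 and -0.03. The lists above share a sign in both settings, and some others did not. Respiratory chain genes had 0.03 and -0.13, and lung lineage genes 0.14 and -0.13.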

How the data were processed

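Gene expression was measured in 8 samples of a lung adenocarcinoma cell line on Affymetrix oligonucleotide arrays, with groups taken from the sample titles. The deposited values are intensity values on a linear scale, 1 per probe set, and per the labels the RNA was extracted with Trizol and copied with an oligo-dT primer. Which software, background correction and scaling the authors used is not given in the sources used here. Signals were taken as log2(signal + 16) and quantile normalised over 8 arrays, because array medians spanned 0.43. The 68 control probe sets and those with a mean below the 40th percentile were left out, leaving 13329. Of 22215 probe sets, 19065 have 1 gene symbol and only these were named. The brightest probe set stood for each of 8023 genes.

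limma 3.58.1 in R 4.3.3 was fitted with 1 coefficient per group and an intensity trend (4 residual and 7.1 prior degrees of freedom), two-sided, and was tested on simulated data. Named genes are all called genes, the smallest p-values in a direction with fewer than 10 calls, the 5 smallest p-values of the difference, and from each of 33 gene lists as many as 4 with the smallest p. The comparison, members and lists were chosen with earlier results of these data known. Alternatives were other scalings, pseudocounts, filters and models, a replicate block, array brightness as a covariate and leaving out each array. Promoters are RefSeq windows on GRCh38.p14.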

Additional observations from a re-analysis of the deposited data

Results flagged for a closer look

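In 8 of the genes named or called, the arrays separated without overlap in opposite directions in the combination against carboplatin and in rosiglitazone against control, with an unadjusted limma p under 0.05 for the difference between the effects. No difference passed adjustment on quantile normalised values (limma adjusted p = 0.819 for each). On the deposited scaling PLCG1 (-2.25, adjusted p = 0.024) and CIITA (-2.15, adjusted p = 0.0397) did. Of all 13329 probe sets, 713 (5.35%) separated in opposite directions. That share carries no condition on p, so it does not match the count of 8. The named genes also include the 5 with the smallest p for this difference. The count of 8 therefore partly follows from how the genes were picked. The difference was -2.1 for PLCG1, -1.26 for ERF, 1.56 for ATP2C1 and -1.58 for PCOTH. CIITA, the master regulator of MHC class II genes, had -2.13 ± 0.59. Its deposited signals were 8.4 and 52.4 in the combination, 54.1 and 64.8 with carboplatin, and 9.9 and 17.1 in control. Some CIITA values therefore lay near or below the pseudocount of 16, and its combination arrays were far apart. The control signals of PCOTH, 14.7 and 14.4, were below that pseudocount too. EGLN1, an oxygen sensor that marks HIF for degradation, had -1.25. POLD1, the catalytic subunit of DNA polymerase delta, had 0.66. Values above are for the brightest probe set of each gene. The other tested probe sets of PLCG1 and ATP2C1 moved less in both comparisons.

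CDK10, a cyclin-dependent kinase gene, had 1.77. It carries the called probe set that is not its gene's brightest, at 6.83 and 6.36 in the combination and 5.12 and 5.02 with carboplatin, against 5.99 and 5.98 with rosiglitazone and 6.08 and 6.36 in control. That probe set rose by 1.53 ± 0.24 on top of carboplatin (limma adjusted p = 0.0315), while the gene's other tested probe sets differed by 0.72 (adjusted p = 0.747) and -0.02.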

How the results depend on the processing

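Beside the 21 calls in the combination against carboplatin, the fit made 9 on the deposited scaling (7 of them among the 21), 8 on median scaling, 6 when dim probe sets were kept, 5 without an intensity trend, 5 with only the arrays compared, and 4 to 22 with 1 array left out. Rosiglitazone against control had 48 calls (36 higher and 12 lower), and 24 on the deposited scaling (21 higher and 3 lower, 12 of them among the 48), 18 on median scaling (17 among the 48), 6 with dim probe sets kept and 6 without a trend, with 19 when array brightness was a covariate and 3 to 49 with 1 array left out. The list genes had 13 calls, against 6 on the deposited scaling, 5 on median scaling, 4 with no filter, 4 without a trend, 4 with only the arrays compared, and 3 to 15 with 1 array left out. The difference between the effects had 0 calls, 3 on the deposited scaling (PLCG1, CIITA and an unnamed probe set), and 0 to 0 with 1 array left out. The cause of these shifts was not tested, except that fewer arrays were used in the last kind. With the replicate number as a block the main comparison had 17 calls, 16 of them shared with the 21. The titles do not say what a shared number stands for. Same-numbered arrays deviated together with r = 0.253 for the combination and carboplatin, and r was -0.11 to 0.094 for the other pairs of groups, so with 2 numbers the pairing is not settled. Among named genes 6 signs reversed, for RPL8 (0.0079) and ERF (0.0113) on the deposited scaling, LIPE without carboplatin array 1 (0.1684) and without combination array 2 (0.1574), and MED1 (0.0126) and HBB (0.0109) without carboplatin array 2. With 1 array left out LIPE ran from -0.3221 to 0.1684, MED1 from -0.4409 to 0.0126 and HBB from -0.4327 to 0.0109. No detection calls were used.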

Other observations

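Several gene groups had medians near that of all genes in the combination against carboplatin. Respiratory chain genes were 22 higher and 12 lower of 34 (median 0.03), ribosomal protein genes 13 higher and 9 lower of 23 (median 0.007), and heat shock genes 7 higher and 8 lower of 15. ATF4 and unfolded protein response genes were 12 higher and 15 lower of 27, and interferon response and antigen presentation genes 14 higher and 13 lower of 27. Glycolysis and hypoxia response genes were 21 higher and 12 lower of 33 (median 0.085). Limma called 0 genes in each of these lists. At an unadjusted p under 0.05 in limma the respiratory chain list had 2 higher and 1 lower, and the ATF4 list 2 higher. The interferon list had 1 higher and 2 lower, the glycolysis list 1 higher and 2 lower, and the other lists 0. Over all genes 3.53% were higher and 2.89% lower at that level.

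Lipid droplet and lipoprotein genes were 11 higher and 8 lower of 19 with a median of 0.04. By call 3 of them rose, against 0.224% of all genes. Regulators of G protein signalling and calcium pumps were 4 higher and 7 lower of 11, with ATP2B4 called. Of fibroblast markers 2 of 6 were tested, 1 higher and 1 lower. The deposited signal summed over all 16 probe sets of the fibroblast list, those below the filter included, was 316 to 388 in the combination and 340 to 373 with carboplatin.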
